A study of Saccharomyces cerevisiae with 6 samples.

Results

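Trehalose is a disaccharide of glucose that budding yeast stores and that protects its proteins and membranes during heat, drying and starvation. The 7 genes described here make and break it down, and were taken by symbol from a list of the synthase complex (TPS1, TPS2, TPS3, TSL1) and of the trehalases (NTH1, NTH2, ATH1). All 7 were measured, each by 1 probe set, among the 5656 genes with a one-gene probe set. The values were log2 expression levels from 6 one-colour arrays. M1 and M8 are mutants of Tra1, a scaffold subunit of both SAGA and NuA4, which acetylate histones, and both are described as defective in the interaction with the activator Gal4. The third group, WT, is the wild-type strain. Each group had 2 arrays of total RNA from whole cells in YPD, a rich glucose medium, with no treatment. The sources used here do not give the amino acid changes, the strain background, the growth phase at harvest or whether the mutant allele was the only copy of TRA1. Nothing said that duplicates came from separate cultures, so p-values here reflect the spread of these samples alone, and that spread can be technical.

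In the cell, Tps1 joins UDP-glucose and glucose 6-phosphate to trehalose 6-phosphate, and Tps2 removes the phosphate to release trehalose. Tps3 and Tsl1 are related large subunits with regulatory and structural roles in the same complex. Trehalose 6-phosphate also restrains hexokinase, so Tps1 is needed for growth on glucose. Breakdown to glucose is carried out by the neutral trehalase Nth1 in the cytosol, which protein kinase A activates together with 14-3-3 proteins, by its relative Nth2, and by the acid trehalase Ath1, which acts on trehalose outside the cytosol. Many of these genes are known targets of the general stress activators Msn2 and Msn4, and a rise of synthase and trehalase messages together is known from stressed yeast.

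Over all probe sets, Pearson's r between arrays was 0.988 to 0.998, and their medians lay between 6.48 and 6.52. The M1 duplicates differed most, with an SD of the difference over genes of 0.349, against 0.142 in M8 and 0.198 in WT. The array most distant from the others was M1 replicate 2. TRA1 itself (YHR099W) had means of 8.64 ± 0.21 in M1, 8.72 ± 0.19 in M8 and 8.26 ± 0.21 in WT (SD, n = 2 each) at the brightest of its 13 probe sets, over which the difference from WT ranged from -0.042 to 0.44 in M1 and from -0.17 to 0.60 in M8. Its message level does not check the labels.

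The first question was how the genes of trehalose synthesis stood in the mutants. On the log2 scale, all 4 had higher means in M1 than in WT and higher means in M8 than in WT. TSL1 and TPS1 lay farthest above WT, and TPS2 least.

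TSL1 (YML100W), the gene of a regulatory subunit, had log2 levels of 8.36 and 8.06 in M1 and of 8.58 and 8.32 in M8, against 7.64 and 7.61 in WT. Every mutant array lay above both WT arrays, and the M1 and M8 ranges overlapped. The difference from WT was 0.58 (SE 0.15) in M1, which is 1.50-fold with a 95% interval of 1.18 to 1.90. In M8 it was 0.82 (SE 0.15), or 1.77-fold with an interval of 1.40 to 2.24. The limma adjusted p over all genes, after Benjamini-Hochberg correction, was 0.390 in M1 and 0.238 in M8, so TSL1 did not pass in either. By signed difference it stood high among all genes, as 0.0707% of them had a difference at least as high in M8 and 0.513% in M1. Genes that were lower by as much are not counted in these shares.

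TPS1 (YBR126C), the gene of the synthase itself, had levels of 9.64 and 9.48 in M1 and of 9.70 and 9.50 in M8, against 9.18 and 9.09 in WT. Both mutants were clear of WT on every array and overlapped each other. The difference was 0.43 (SE 0.13) in M1 and 0.46 (SE 0.13) in M8, with limma adjusted p = 0.475 and 0.498. As folds these were 1.34 with a 95% interval of 1.10 to 1.64 in M1, and 1.38 with an interval of 1.13 to 1.69 in M8.

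TPS3 (YMR261C), which encodes the other regulatory subunit and is a paralog of TSL1, had levels of 8.86 and 8.67 in M1 and of 8.87 and 8.80 in M8, against 8.65 and 8.40 in WT. The mutant arrays again lay above both WT arrays, but in M1 by a narrow gap. The difference of TPS3 from WT was 0.24 (SE 0.13) in M1, and in M8 it was 0.31 (SE 0.13), with limma adjusted p = 0.648 and 0.702. Both values moved with the WT duplicates: without WT replicate 2 the differences were 0.12 in M1 and 0.19 in M8, and without WT replicate 1 they were 0.37 and 0.44.

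TPS2 (YDR074W), the phosphatase gene, had levels of 8.19 and 7.94 in M1 and of 8.33 and 8.08 in M8, against 7.87 and 8.02 in WT. It was the member whose arrays overlapped between M1 and WT, while both M8 arrays were above WT. The differences were 0.12 (SE 0.14) in M1 and 0.26 (SE 0.14) in M8, with 95% intervals of -0.22 to 0.46 and of -0.076 to 0.60. The limma adjusted p was 0.814 in M1 and 0.797 in M8. Without M1 replicate 1 the M1 difference turned to -0.0066, and the M8 difference was 0.14 without M8 replicate 1.

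**Figure D1:**
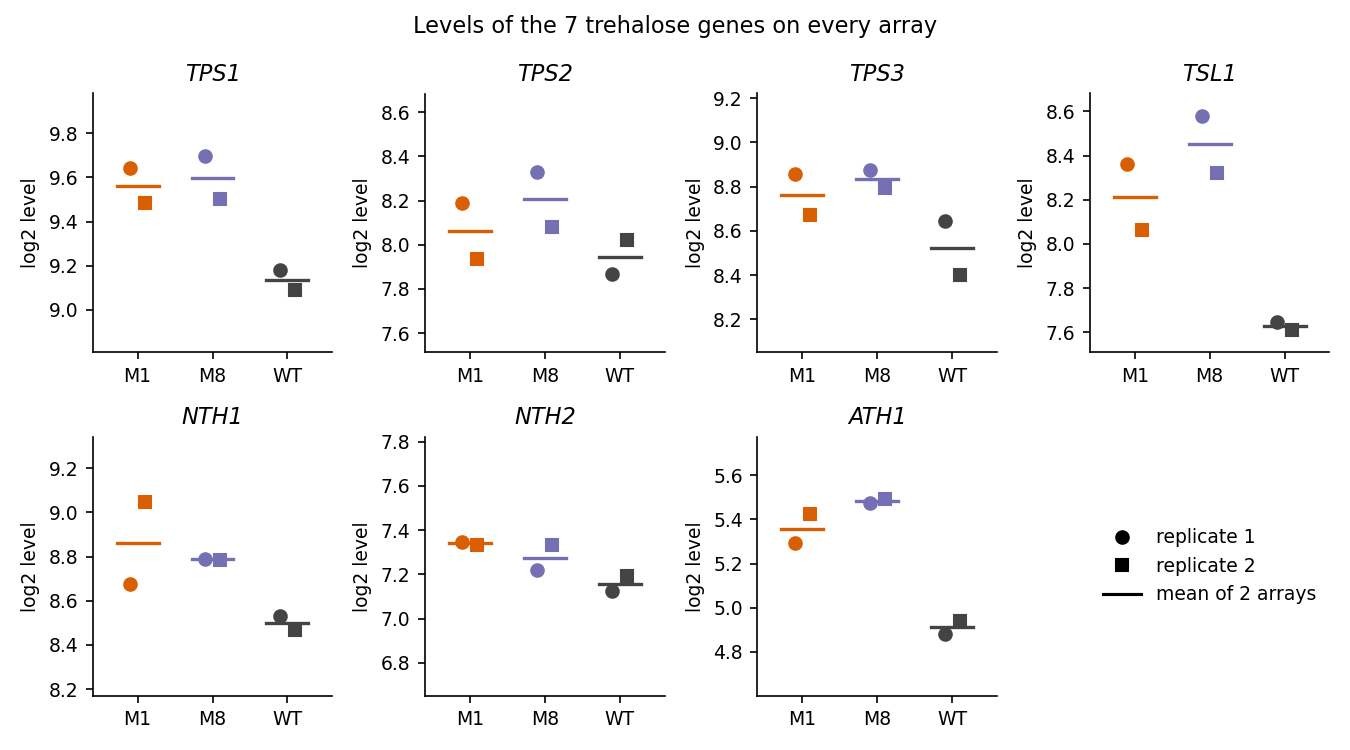
Log2 level (vertical axis) of each trehalose gene on the 2 arrays of M1, M8 and WT (horizontal axis), with circles for replicate 1, squares for replicate 2 and a line for the group mean; panels have their own levels but 1 common height. The widest gap between mutants and WT is that of TSL1, with means of 8.21 in M1, 8.45 in M8 and 7.63 in WT, and the overlap of M1 with WT is seen for TPS2.

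The second question was whether the genes of breakdown moved with those of synthesis or against them. The 3 trehalase genes also had higher means in each mutant than in WT, so no member of the pathway stood on the opposite side. ATH1 was farthest above WT and NTH2 nearest to it.

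ATH1 (YPR026W), the acid trehalase gene, had levels of 5.29 and 5.42 in M1 and of 5.47 and 5.49 in M8, against 4.88 and 4.94 in WT. Duplicates were close in each group, and all mutant arrays lay well above WT. The difference was 0.45 (SE 0.11) in M1, or 1.36-fold with a 95% interval of 1.14 to 1.63. In M8 it was 0.57 (SE 0.11), or 1.49-fold with an interval of 1.24 to 1.78. The limma adjusted p was 0.390 in M1 and 0.287 in M8. The ATH1 probe set was dim, since 15.0% of genes had a lower mean level, and the deposited values carry no detection call.

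NTH1 (YDR001C), the gene of the main neutral trehalase, had levels of 8.68 and 9.04 in M1 and of 8.79 and 8.78 in M8, against 8.53 and 8.47 in WT. All mutant arrays were above WT, and the M1 duplicates lay on either side of the M8 pair. The differences were 0.36 (SE 0.14) in M1 and 0.29 (SE 0.14) in M8, with limma adjusted p = 0.544 and 0.731. The M1 value was 0.18 without M1 replicate 2, the array farthest from the others, and 0.55 without M1 replicate 1.

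NTH2 (YBR001C), the paralog of NTH1, had levels of 7.35 and 7.33 in M1 and of 7.22 and 7.33 in M8, against 7.12 and 7.19 in WT. The mutant arrays cleared WT by a small margin. Its differences were 0.18 (SE 0.11) in M1 and 0.12 (SE 0.11) in M8, with intervals of -0.075 to 0.44 and of -0.14 to 0.37, and limma adjusted p = 0.665 and 0.889. In M8 29.4% of all genes had a difference at least as high, so NTH2 did not stand out there. The value in M8 was 0.061 without M8 replicate 2 and 0.17 without M8 replicate 1. Whether the probe sets of paralogs (NTH1 with NTH2, TPS3 with TSL1) read each other's message was not tested.

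**Figure D2:**
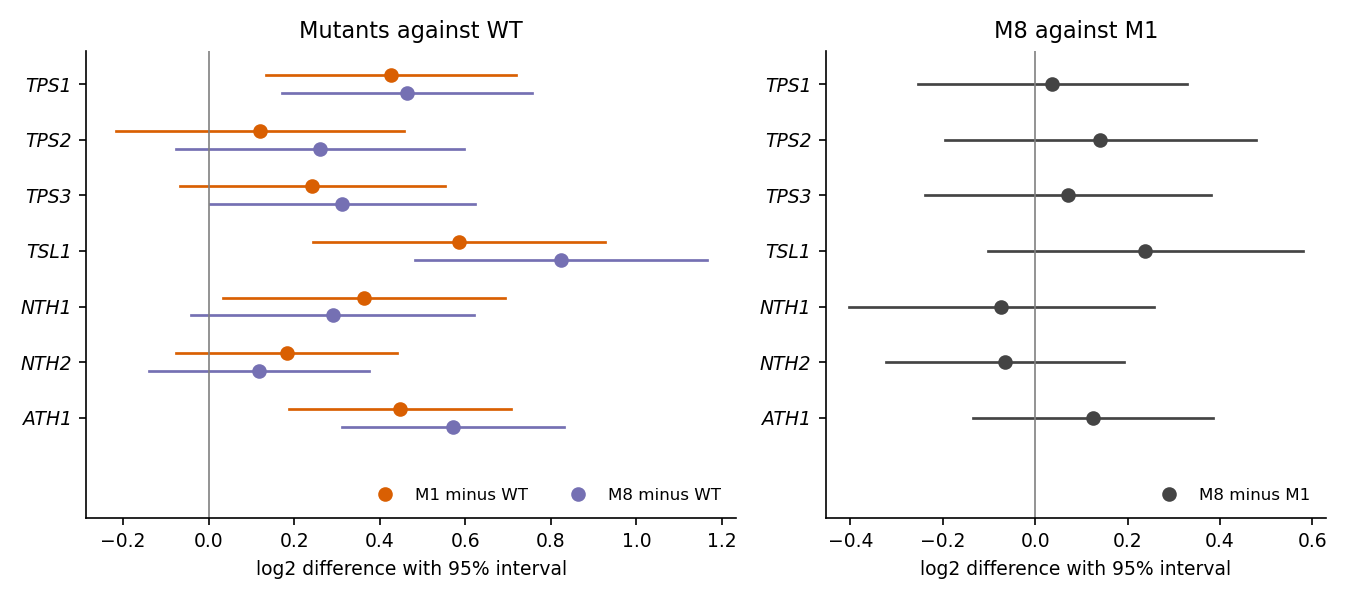
Log2 differences (horizontal axis) of the 7 genes with 95% intervals from limma, for M1 minus WT and M8 minus WT on the left and M8 minus M1 on the right. The intervals of TPS1, TSL1 and ATH1 lie above 0 in both mutants, and all 7 intervals of M8 minus M1 include 0.

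Set beside all genes, the pathway sat on the high side in each mutant. The 7 genes were chosen with earlier results of these data known. The counts and shares here and below are therefore a description and not a test. In M1 the median difference of the 7 genes was 0.36, against 0.012 over all genes, and 7 of 7 were above 0, as were 52.7% of all genes. No member passed limma's adjusted p of 0.05, like all other genes in M1, where 0% were called. At an unadjusted p under 0.05, 4 members were higher (TPS1, TSL1, NTH1 and ATH1) and 0 lower, where 5.11% of all genes were higher and 3.47% lower. In 6 of 7 both M1 arrays lay above both WT arrays, which held for 22% of all genes, and in 0 below, which held for 13.5%. NTH1 and ATH1 passed without M1 replicate 1, with 0.55 and 0.51 and limma adjusted p = 0.0317 and 0.0392, but so did 382 genes in all. In that fit M1 replicate 2 stands alone and is assumed to vary as the other groups do. Without M1 replicate 2, 62 genes passed and 0 of the 7 did.

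In M8 the median of the 7 genes was 0.31, against 0.029 over all genes, and 7 of 7 were above 0, against 57% of all genes. Again 0 members were called by limma, where 0% of all genes were. At an unadjusted p under 0.05, 4 members were higher (TPS1, TPS3, TSL1 and ATH1) and 0 lower, beside 4.74% and 2.32% of all genes. Both M8 arrays lay above both WT arrays for 7 of 7 members, and for 29% of all genes, and below for 0 members, and for 19.1% of all genes. The comparison of M8 with WT uses the same WT arrays as that of M1, so the 2 sets of values are not independent of each other. TSL1 passed in M8 when the M1 arrays were kept out of the estimate of the spread, with limma adjusted p = 0.0354, as 1 of 23 genes. Leaving out either M1 replicate gave the same value, because a lone array adds nothing to that estimate. The median of the 7 was 0.44 without WT replicate 1.

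**Figure D3:**
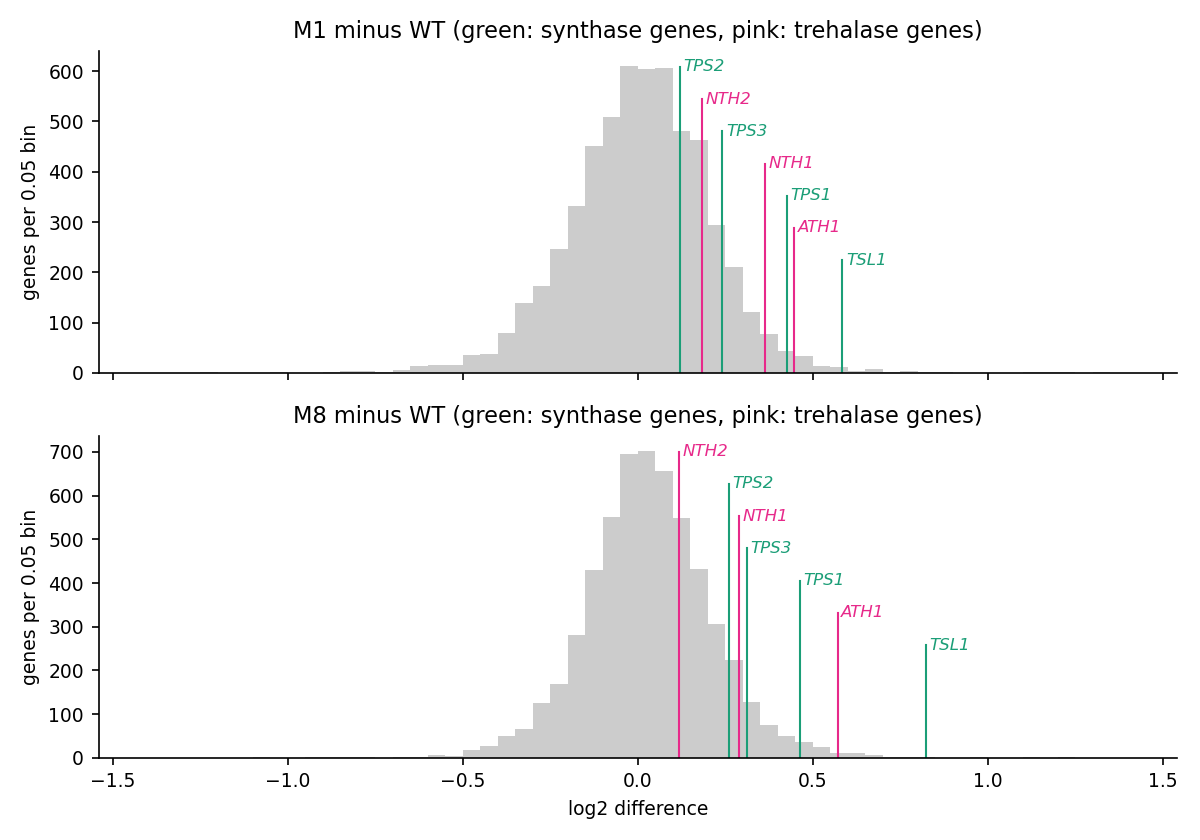
Number of genes (vertical axis) per bin of 0.05 in log2 difference (horizontal axis) over all 5656 genes, for M1 minus WT above and M8 minus WT below; lines mark the synthase genes in green and the trehalase genes in pink, and their heights only separate the names. The members lie on the right side, between 0.12 (TPS2) and 0.58 (TSL1) in M1 and between 0.12 (NTH2) and 0.82 (TSL1) in M8.

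With the mean of M1 and M8 set against WT, which averages both mutants and can rest on 1 of them, the members ranged from 0.15 for NTH2 to 0.70 for TSL1. The median was 0.33, against 0.020 over all genes, and 7 of 7 lay above 0, as did 55.3% of all genes. TSL1 had the smallest limma adjusted p of the members, 0.157, ahead of ATH1 (0.51, SE 0.097, adjusted p = 0.193) and TPS1 (0.44, SE 0.11, adjusted p = 0.300). No member was called, where 0.0707% of all genes were, a total of 4. At an unadjusted p under 0.05, 5 of 7 were higher and 0 lower, against 5.25% and 2.74% of genes. For 6 of 7, with TPS2 as the exception, all 4 mutant arrays lay above both WT arrays, which was so for 11.9% of all genes, and for 0 members they lay below, against 6.86% of all genes. Calls appeared when either M1 array was left out. Without M1 replicate 2, TSL1, ATH1 and TPS1 passed with limma adjusted p = 0.0205, 0.0369 and 0.0488, among 132 genes. Without M1 replicate 1, TSL1 and ATH1 passed with limma adjusted p = 0.0456 and 0.0436, among 51 genes.

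**Figure D4:**
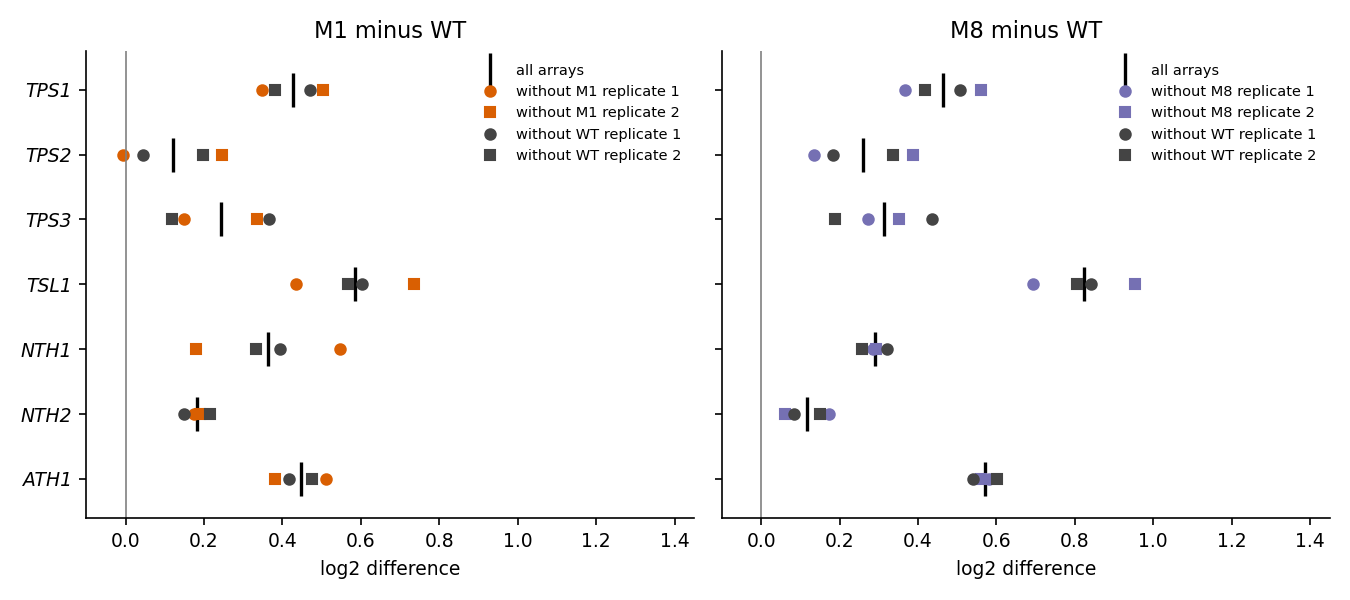
Log2 differences (horizontal axis) of the 7 genes for M1 minus WT and M8 minus WT, with a bar for the fit to all arrays and a symbol for each fit that leaves out 1 array of the groups compared. TSL1 stays between 0.43 and 0.73 in M1 and between 0.69 and 0.95 in M8, while TPS2 in M1 reaches -0.0066 without M1 replicate 1.

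The mutants were then compared with each other. The 4 synthase genes and ATH1 had higher means in M8 than in M1, whereas NTH1 and NTH2 had lower ones. Means thus followed the order M8, M1, WT, high to low, for 5 of 7 members, an order found in 17.6% of all genes. That count depended on single arrays, since M8 minus M1 turned to -0.041 for TPS1 and -0.022 for TPS3 without M1 replicate 2, where NTH1 turned to 0.11, and to -0.060 for TPS1 without M8 replicate 1. The difference was above 0 for 5 of 7 members and for 52.4% of all genes. None of the M8 minus M1 differences passed limma's test, as for all genes (0% called). At an unadjusted p under 0.05, 0 members were higher and 0 lower, against 4.12% and 2.32% of all genes. The difference of TSL1 was 0.24, with a 95% interval of -0.10 to 0.58 and limma adjusted p = 0.721. It was the highest among the members with all arrays, but lay below that of ATH1 without M1 replicate 2 (0.089 for TSL1, 0.19 for ATH1) and without M8 replicate 1 (0.11 and 0.13). TPS1 differed by 0.037, with an interval of -0.25 to 0.33, and TPS2 by 0.14, with an interval of -0.20 to 0.48. For TPS2 the value was 0.015 without M1 replicate 2 or without M8 replicate 1, and 0.27 without M1 replicate 1 or without M8 replicate 2. ATH1 had both M8 arrays above both M1 arrays, with 0.12 and an interval of -0.14 to 0.38, and 19.5% of all genes were separated that way. NTH2 had both M8 arrays below both M1 arrays, as did 18.4% of all genes, though one pair of values differed only in the third decimal. Its difference was -0.065, with an interval of -0.32 to 0.19, and that of NTH1 was -0.073, with an interval of -0.40 to 0.26. M8 and M1, neighbours in the order, thus had an interval that included 0 for every member, and for TSL1 it reached up to 0.58. The ordinary linear model, without moderation, also called 0 members in this and in the comparisons above.

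Along the 6 arrays, the synthase genes TPS1 and TSL1 followed each other most closely of the 21 member pairs, with Pearson's r of 0.975 between their log2 levels. TPS1 and TPS3 had r = 0.918, and TSL1 and TPS3 had r = 0.899. ATH1 tracked TSL1 at 0.891 and TPS1 at 0.874, whereas the neutral trehalase gene NTH1 had 0.648 with TPS1 and 0.125 with TPS2, the lowest of all pairs. The points are the same 6 arrays in 3 groups, so these values share the distance between mutants and WT and are given as a description.

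Outside the pathway, the genes whose log2 levels over the 6 arrays were most like those of a member had r between 0.976 and 0.998. For TSL1 these were RCO1, a subunit gene of a histone deacetylase complex, with r = 0.995, BBC1, an actin patch gene, with 0.995, and CWP1, a cell wall mannoprotein gene, with 0.989. TPS1 was nearest to DNF3, a phospholipid flippase gene (0.998), RCK2, a kinase gene (0.993), and again RCO1 (0.983). ATH1 was nearest to LSP1, an eisosome gene (0.988), AVT6, a vacuolar amino acid exporter gene (0.987), and TAF3, a TFIID subunit gene (0.987). NTH1 had MSF1, TMA46 and the copper transporter gene CTR1 as its nearest, with 0.989, 0.987 and 0.984. The remaining members had YBT1, NTE1 and the peroxiredoxin gene AHP1 (TPS3), PRE8, ATG9 and ECM30 (TPS2), and SEF1, BUD27 and RAD2 (NTH2). The most opposite genes were LSM2 for TSL1, BRR6 for TPS1, MHF2 for TPS3, DIT1 for TPS2, SPI1 for NTH1, BUB3 for NTH2 and the small nucleolar RNA gene SNR31 for ATH1, with r between -0.994 and -0.975. These are the highest of 5656 genes over only 6 arrays. An r over 0.9 was reached by 0.690% of genes for TPS2 and by 2.18% for TPS1.

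Trehalose synthesis draws on glucose 6-phosphate and UDP-glucose, so the genes that supply them were examined next. Of these 6, GLK1, PGM2 and UGP1 were higher at an unadjusted p under 0.05 in M1, where 5.11% of all genes were, and in M8, where 4.74% were. Both counts rest on the same WT arrays. GLK1, the glucokinase gene, had levels of 11.00 and 10.78 in M1 and of 10.97 and 11.00 in M8, against 10.44 and 10.42 in WT. Its differences were 0.47 (SE 0.12) in M1 and 0.56 (SE 0.12) in M8, and all mutant arrays stood above WT. UGP1, whose enzyme makes UDP-glucose, had 10.47 and 10.31 in M1 and 10.50 and 10.43 in M8, against 10.19 and 9.88 in WT, with differences of 0.36 (SE 0.14) and 0.43 (SE 0.14). PGM2, the main phosphoglucomutase gene, had 7.92 and 8.07 in M1 and 7.89 and 7.75 in M8, against 7.24 and 7.10 in WT. It lay 0.82 (SE 0.12) above WT in M1, and in M8 it lay 0.65 (SE 0.12) above, the largest differences among the precursor genes. The limma adjusted p of these 3 genes lay between 0.160 (PGM2 in M1) and 0.628 (UGP1 in M8), so none was called. The differences of their isoenzyme genes were smaller: PGM1, the minor phosphoglucomutase gene, had 0.068 in M1 and -0.0088 in M8, and the hexokinase genes HXK1 and HXK2 had 0.25 and -0.018 in M1, and 0.17 and 0.17 in M8.

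Among the genes of proteins that act on neutral trehalase, DCS2 lay highest in M1 and DCS1 in M8. Dcs1 is a scavenger decapping enzyme linked to trehalase activity, and Dcs2 is its stress-induced relative. DCS2 had 5.83 and 5.84 in M1 and 5.82 and 5.81 in M8, against 5.41 and 5.49 in WT, so its 4 mutant arrays were nearly level and clear of WT. The differences of DCS2 were 0.38 (SE 0.11) in M1 and 0.37 (SE 0.11) in M8, with limma adjusted p = 0.441 and 0.569. DCS1 had 7.52 and 6.85 in M1 and 7.48 and 7.702 in M8, against 6.92 and 7.01 in WT, with the M1 duplicates on either side of WT. Its difference was 0.22 (SE 0.21) in M1, and in M8 it was 0.62 (SE 0.21). The 14-3-3 genes BMH1 and BMH2 had 0.27 and -0.0075 in M1, and 0.27 and 0.47 in M8, none of them at an unadjusted p under 0.05.

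Protein kinase A activates neutral trehalase and restrains stress transcription. Of its genes, TPK2, a catalytic subunit gene, had 7.26 and 7.27 in M1 and 7.38 and 7.46 in M8, against 7.001 and 6.926 in WT. For TPK2 the difference was 0.30 (SE 0.11) in M1, and in M8 it was 0.46 (SE 0.11). TPK3, another catalytic subunit gene, had 0.29 (SE 0.11) in M1 and 0.20 (SE 0.11) in M8. BCY1, the gene of the regulatory subunit, which was named after its values were seen, had 0.047 (SE 0.15) in M1 and 0.077 (SE 0.15) in M8. GIS1, the gene of a stationary-phase activator, had 0.15 (SE 0.12) in M1, while its value in M8 was 0.34 (SE 0.12). The 5 genes of transcription and its control, with MSN2, MSN4 and HSF1 among them, had a median of -0.080 in M1 and 0.16 in M8. They ranged from -0.11 to 0.15 in M1 and from -0.0058 to 0.34 in M8. MSN2 had levels of 7.43 and 6.84 in M1 and of 7.42 and 7.48 in M8, against 7.20 and 7.28 in WT. MSN4 had 6.17 and 5.74 in M1 and 6.18 and 6.22 in M8, against 5.98 and 6.10 in WT. For both genes M1 replicate 1 lay above the WT arrays and M1 replicate 2 below them. In M8 both arrays lay above both WT arrays for MSN2 and for MSN4, as for 29% of all genes. MSN2 differed from WT by -0.11 in M1 and 0.21 in M8 (SE 0.19 each). For MSN4 the differences were -0.080 in M1 and 0.16 in M8 (SE 0.16 each).

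Over the 19 measured genes of this wider list, which was chosen with earlier results of these data known, 0 passed limma's adjusted p in either mutant. At an unadjusted p under 0.05, 6 were higher in M1 and 7 in M8, and 0 lower, with medians of 0.15 in M1 and 0.21 in M8. Over all genes, 5.11% were higher and 3.47% lower in M1, and 4.74% and 2.32% in M8. For the 11 genes of glycogen, the other reserve carbohydrate made from UDP-glucose, the medians were 0.19 in M1 and 0.22 in M8. Of these, 1 was higher in M1, a share near the 5.11% of all genes, and 5 in M8, beside 4.74% of all genes, at an unadjusted p under 0.05, and 0 were lower. GLC3, the branching enzyme gene, had a difference of 0.31 (SE 0.12) in M1, and of 0.48 (SE 0.12) in M8. GDB1, the debranching enzyme gene, had 0.22 (SE 0.14) in M1 and 0.41 (SE 0.14) in M8. GLC3 and GDB1 are named because their mean differences were the largest of the 11. The whole glycogen list ranged from -0.22 to 0.31 in M1 and from 0.035 to 0.48 in M8. Whether the trehalose genes differ from the glycogen genes in their shift was not tested.

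**Figure D5:**
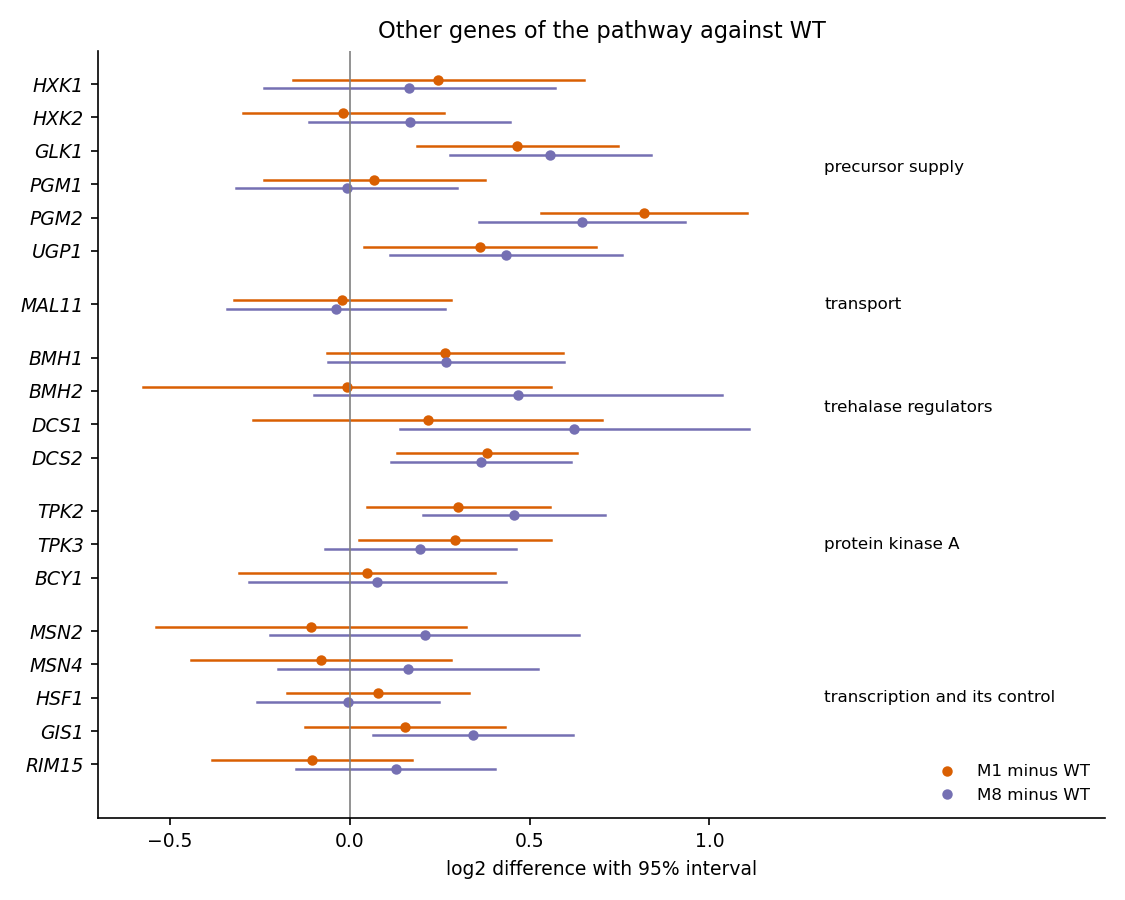
Log2 differences from WT (horizontal axis) with 95% intervals for the 19 measured genes of precursor supply, transport, trehalase control, protein kinase A and transcription, with M1 above M8 in each pair. GLK1, PGM2, UGP1, DCS2 and TPK2 have intervals above 0 in both mutants, led by PGM2 with 0.82 in M1.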

How the data were processed

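The authors deposited log2 values, 1 per probe set and array, for which the submitters' processing notes name RMA and the oligo package without versions or settings. Per the labels' protocols, RNA was labelled with biotin by a 3' IVT kit. The table held 9275 probe sets on 6 arrays. Of these, 6504 have 1 gene in the platform's annotation, all matched to the R64 gene table by identifier; 2771 with several genes or none were left out. Where a gene had several probe sets, the one with the highest mean was kept, which left 5656 genes. Group means over all 6 arrays were fitted with limma 3.58.1 (lmFit, eBayes) in R 4.3.3, with 3 residual degrees of freedom, two-sided tests and Benjamini-Hochberg adjustment over all genes; an adjusted p under 0.05 was called. The fit was run on simulated data in which all groups had the same spread, so that run does not cover the unequal spread of these groups. The members and the other lists were chosen with earlier results of these data known. All members were named; of the wider list, genes with an unadjusted p under 0.05 in either mutant, the precursor enzymes and the trehalase regulators were; of glycogen, the 2 with the largest mean difference; and for each member the 3 most alike genes and the most opposite. MSN2, MSN4, HSF1 and BCY1 of the wider list were named outside these rules. Alternatives covered probe set choice, scaling, dim genes, the prior, the groups fitted, a replicate block and each array left out. No depth applies to arrays, and their number limits the precision. RMA scaling hides a global shift of all messages.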

Additional observations from a re-analysis of the deposited data

How the results depend on the processing

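With 2 arrays a group, calls rested on the estimate of the spread. For M1 minus WT, 3 genes were called with the mean of a gene's probe sets, 3 without dim genes and 3 with a trended robust prior, against 0 with the settings used above. Leaving out 1 array gave 0 to 382 genes and 0 to 2 trehalose genes. For M8 minus WT, 23 genes and 1 trehalose gene were called from the M8 and WT arrays alone. Leaving out 1 array gave 0 to 23 genes, 0 to 1 trehalose genes and a median of the 7 between 0.29 and 0.44. For M8 minus M1, leaving out 1 array gave 0 to 748 genes, the highest without M1 replicate 1, and 0 trehalose genes. For the mean of both mutants the 4 calls fell to 0 with quantile normalization, the ordinary linear model, all one-gene probe sets or the replicate block, and leaving out 1 array gave 0 to 132 genes and 0 to 3 trehalose genes. The cause of these shifts was not tested. Signs turned for TPS2 in M1 without M1 replicate 1 (range over arrays left out -0.0066 to 0.25). In M8 minus M1 they turned for TPS1 without M1 replicate 2 (-0.041) or M8 replicate 1 (range -0.060 to 0.13), and without M1 replicate 2 for TPS3 (range -0.022 to 0.16) and NTH1 (range -0.26 to 0.11). Median centring and quantile normalization turned no sign of a member. ATH1 falls below the filter on dim genes, so that setting gives no median. Same-numbered duplicates did not vary together in all groups, with correlations of -0.11 (M1 with M8), -0.31 (M1 with WT) and 0.30 (M8 with WT) between their differences. The replicate block left 0 trehalose genes called in all 4 comparisons. A block with the M1 numbers crossed, chosen after seeing the data, called 5 genes in M1 and 0 trehalose genes.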

Other observations

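Within each mutant, the duplicates of the synthase genes differed in the same sense. Replicate 1 minus replicate 2 was 0.16 for TPS1, 0.25 for TPS2, 0.18 for TPS3 and 0.30 for TSL1 in M1. In M8 it was 0.19 for TPS1, 0.25 for TPS2, 0.079 for TPS3 and 0.26 for TSL1. In WT it was 0.088 for TPS1, -0.15 for TPS2, 0.25 for TPS3 and 0.035 for TSL1. Replicate 1 was the higher array for 60.6% of all genes in M1, 48.4% in M8 and 45.7% in WT. The trehalase genes did not share this: the same difference was -0.37 for NTH1, 0.017 for NTH2 and -0.13 for ATH1 in M1, and 0.0064 for NTH1, -0.11 for NTH2 and -0.020 for ATH1 in M8. The replicate numbers come from the sample titles, which do not say what they stand for. What the synthase genes' shared spread comes from was not tested.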
